A study of Homo sapiens with 6 samples.

Results

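The genes described here are 10 negative-feedback and output genes of the ERK kinase pathway, namely the MAPK phosphatase genes *DUSP4*, *DUSP5* and *DUSP6*, the Sprouty genes *SPRY1*, *SPRY2* and *SPRY4*, the Sprouty-related genes *SPRED1* and *SPRED2*, and the ETS transcription factor genes *ETV4* and *ETV5*. They were chosen by name for their known role, with earlier results of these data known. Counts of calls among them, and in the gene lists below, are therefore descriptions with no test. All 10 were found among the 67060 genes of the count table and passed its filter on low counts, which left 24500 genes. The samples were SH-SY5Y cells, a human neuroblastoma line grown in medium with 10% fetal bovine serum, in which growth factors were therefore present in both groups. Control cells received the adenovirus Ad CMV GFP, and the other cells received Ad CMV 3xFlag-*Esrrg*, which carries the mouse coding sequence of ERRγ, an orphan nuclear receptor, with a 3xFlag tag behind the CMV promoter. RNA was taken 24 h after 0.5 µl of virus had been added. The groups, called GFP and Flag-ERRg here as in the labels, held 3 libraries each, numbered 1, 3 and 4 for GFP and 2, 3 and 4 for Flag-ERRg. The labels do not say whether the libraries of a group came from separate cultures, so the p-values measure the spread between these libraries, which may be technical.

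ERK is the last kinase of the cascade that runs from receptor tyrosine kinases through RAS, RAF and MEK. Active ERK induces its own inhibitors: dual-specificity phosphatases remove the phosphates from ERK, Sprouty proteins act near the receptor and RAS, and SPRED proteins bring the RAS-inactivating protein neurofibromin to the membrane. *ETV4* and *ETV5* encode ETS factors of the PEA3 group, which are induced by ERK signalling and carry it on to the genome, and the repressor Capicua, encoded by *CIC*, holds several of these genes down until ERK acts on it. Levels of these transcripts are widely read as a report on ERK activity, and in neuroblastoma cells ALK, RET and other receptor kinases feed this cascade.

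The libraries held 24969759 to 40859666 reads on genes. The share of reads that fell on no feature was 51.3% to 52.2% with GFP, 46.6% in Flag-ERRg replicate 2, and 31.6% and 29.5% in replicates 3 and 4, so that the latter 2 libraries stood apart. *ESRRG*, whose human transcripts and the viral mouse sequence cannot be told apart in these counts, was at 83.6, 90.4 and 86.9 normalized counts per 1000000 (CPM) in GFP replicates 1, 3 and 4 and at 570, 772 and 778 in Flag-ERRg replicates 2, 3 and 4. The cells are labelled as neuronal progenitors. The progenitor markers *NES* and *SOX2* were detected, *PAX6* had 3 counts or fewer in every library, and *HES5* and *FABP7* were listed at 0. Whether a gene listed at 0, here and below, had no RNA or lost its reads in the counting was not tested. The summed level of 7 adrenergic neuroblast markers ran from 639 to 695 CPM with GFP and from 498 to 657 with Flag-ERRg, with *TH* listed at 0 in all libraries. The summed level of 6 markers of the mesenchymal, substrate-adherent cell type known from this family of lines ran from 3517 to 3557 CPM with GFP and from 4697 to 4827 with Flag-ERRg, and none of the 6 was at 0. Of these 6 markers 1 was called higher and 1 lower, with a median log2 fold change of 0.11. Most of the difference in the sum lay in *FN1*, at 1956 and 2691 CPM (0.46, not called), and *NT5E*, which rose from 429 to 892 CPM. *COL1A2* fell by 1.47 on the log2 scale on only 25 to 90 counts, and *COL1A1*, *PRRX1* and *CD44* had -0.16, 0.05 and 0.18. The part of this difference in the results below was not tested, and in these bulk samples a change in the number of cells of a type and a change of RNA per cell cannot be told apart.

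With Flag-ERRg, 4 of the 10 genes rose, the 3 phosphatase genes and *ETV4*, by 2.46 to 3.04-fold, and none fell. The other 6, all the Sprouty and SPRED genes and *ETV5*, did not pass the cutoff and lay between 0.783 and 1.21 times their GFP level. A gene was called at a Benjamini-Hochberg adjusted p below 0.05 (edgeR's quasi-likelihood test over all 24500 genes) and a fold change of at least 1.5. By this rule 17.3% of all tested genes were called higher and 16.8% lower, and among the 13746 tested protein-coding genes the shares were 25.9% and 12.4%. Scaling by library size alone in place of TMM moved the calls over all genes from 4234 higher and 4117 lower to 2200 higher and 7566 lower, and the median log2 fold change over all genes to -0.42, so the directions of small differences are relative to the scaling. As reported, the median was 0.24 over the 10 genes, -0.10 over all tested genes and 0.12 over the protein-coding ones. For 8 of the 10 genes the values of the groups did not overlap, which was the case for 58.1% of all tested genes. With 3 libraries on each side, the smallest two-sided p of an exact permutation test is 0.1, and each call therefore rests on the model fitted across genes.

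**Figure D1:**
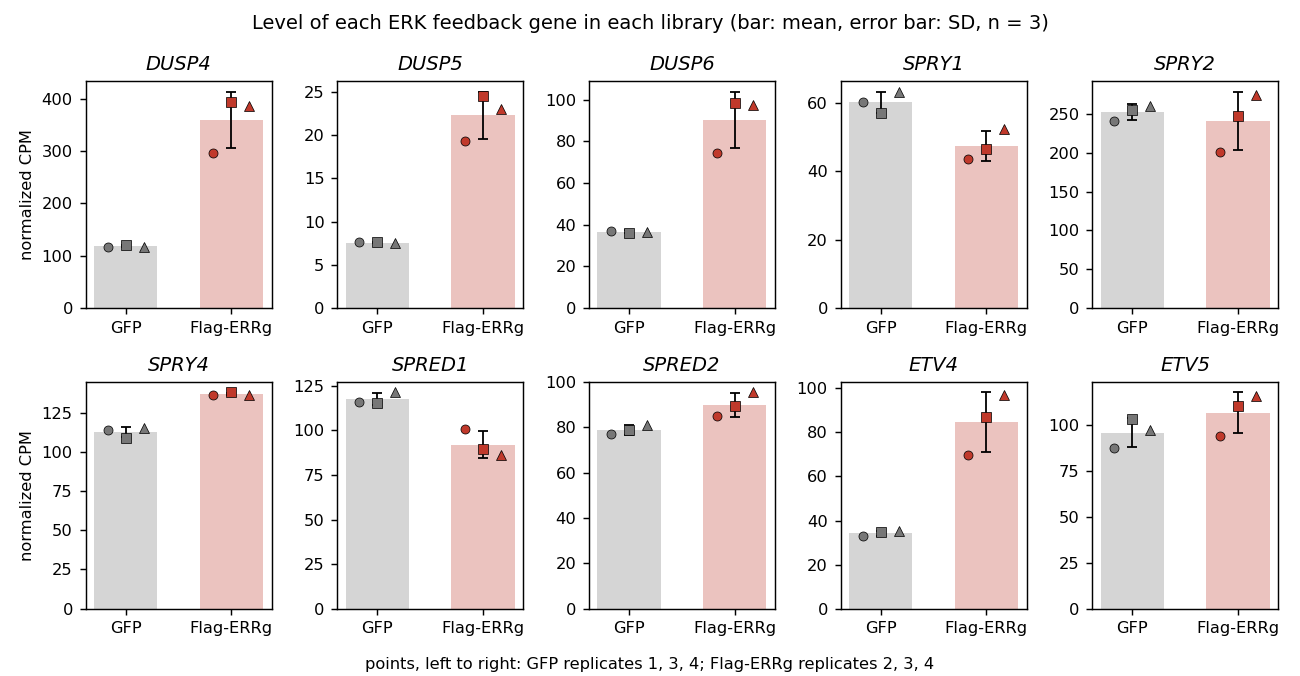
Normalized CPM (y axis, from 0) of each of the 10 genes in each library, with GFP in grey and Flag-ERRg in red; bars are means, error bars SD over 3 libraries, and points are libraries. All 3 Flag-ERRg points of *DUSP4*, *DUSP5*, *DUSP6* and *ETV4* lie above all GFP points with a clear gap, while those of *SPRY2* and *ETV5* overlap.

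*DUSP4* (ENSG00000120875, chromosome 8 from 29333064 to 29350684 on the reverse strand of GRCh38) encodes a nuclear phosphatase of ERK and other MAP kinases. It had 3295, 3718 and 3890 counts in GFP replicates 1, 3 and 4 and 7942, 13264 and 13177 counts in Flag-ERRg replicates 2, 3 and 4. After normalization these were 117, 120 and 118 CPM with GFP and 297, 394 and 387 CPM with Flag-ERRg. The lowest Flag-ERRg library, replicate 2, was thus far above the highest GFP library, and the GFP libraries were nearly equal. The log2 fold change was 1.60 (standard error, SE, 0.12, adjusted p = 1.2e-05), the largest of the 10, and the group means were 118 ± 1.77 and 359 ± 54.0 CPM (SD, n = 3).

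*DUSP5* (ENSG00000138166, chromosome 10 from 110497907 to 110511533) encodes a nuclear phosphatase that acts on ERK. It was the least abundant of the 10 genes, with 215, 235 and 247 counts in the GFP libraries and 515, 826 and 784 counts in Flag-ERRg replicates 2, 3 and 4. The normalized levels were 7.63, 7.60 and 7.46 CPM with GFP against 19.3, 24.5 and 23 CPM with Flag-ERRg. Again replicate 2 was the lowest Flag-ERRg library and the groups were widely separated, with a log2 fold change of 1.56 (SE 0.12, adjusted p = 1.2e-05).

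*DUSP6* (ENSG00000139318, chromosome 12 from 89347235 to 89352501 on the reverse strand) encodes the cytoplasmic phosphatase that is specific for ERK. It was at 37.2, 36.0 and 36.7 CPM in GFP replicates 1, 3 and 4 and at 74.6, 98.5 and 97.6 CPM in Flag-ERRg replicates 2, 3 and 4, with raw counts from 1050 to 1215 and from 1993 to 3327. The log2 fold change was 1.30 (SE 0.12, adjusted p = 3.2e-05). Exons of the long noncoding gene ENSG00000274021, which lies on the opposite strand, cover 28.6% of the exon bases of *DUSP6*. That gene held only 21 to 22 counts with GFP and 23 to 57 with Flag-ERRg, but the strand setting of the counting is not given in the sources used here, so reads of the shared bases may have been left out of the *DUSP6* counts as ambiguous.

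*ETV4* (ENSG00000175832, chromosome 17 from 43527844 to 43579620 on the reverse strand) rose with the phosphatase genes, and its close relative *ETV5* did not. *ETV4* was at 32.9, 34.7 and 35.0 CPM in the GFP libraries and at 69.9, 86.9 and 96.9 CPM in Flag-ERRg replicates 2, 3 and 4. Its log2 fold change was 1.31 (SE 0.12, adjusted p = 3.9e-05). *ETV5* (ENSG00000244405, chromosome 3 from 186046314 to 186110318 on the reverse strand) was at 87.2, 103 and 97.1 CPM with GFP and at 94.0, 110 and 116 CPM with Flag-ERRg, so that the groups overlapped. Its log2 fold change of 0.15 had a 95% interval from -0.09 to 0.39 (adjusted p = 0.27). The sign turned to -0.17 when scaled by library size alone and to -0.12 with the share of reads on no feature as a covariate, without a call in either, and without Flag-ERRg replicate 2 the value was 0.34 (adjusted p = 0.00024, edgeR), still under 1.5-fold. The counts of *ETV4* per count of *ETV5*, a ratio that no scaling between libraries can change, were 0.377, 0.337 and 0.361 in the GFP libraries and 0.743, 0.790 and 0.838 in Flag-ERRg replicates 2, 3 and 4. This pair and the ratios below were picked after their values had been seen, so they are given as descriptions with no test.

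The Sprouty genes, whose products dampen signalling between receptor and RAS, showed small differences of unlike sign. *SPRY4* was at 114, 109 and 115 CPM with GFP and at 137, 138 and 137 CPM with Flag-ERRg. The groups did not overlap, and the log2 fold change of 0.28 (95% interval 0.09 to 0.47, adjusted p = 0.020) was under 1.5-fold, becoming -0.04 when scaled by library size alone. *SPRY1* was at 60.2, 56.9 and 63.1 CPM with GFP and at 43.6, 46.5 and 52.2 CPM with Flag-ERRg, all below the GFP range. Its log2 fold change was -0.34 (95% interval -0.56 to -0.12, adjusted p = 0.016), also under 1.5-fold, and when scaled by library size alone it was -0.67 and called lower. *SPRY2*, the most abundant gene of the 10, was at 241, 255 and 261 CPM with GFP and at 200, 247 and 274 CPM with Flag-ERRg. Its groups overlapped, replicate 2 being the lowest library of all and replicate 4 the highest. The log2 fold change was -0.07 (95% interval -0.34 to 0.20, adjusted p = 0.68). Its sign depended on the settings, with 0.02 from DESeq2 and 0.16 without Flag-ERRg replicate 2. It was -0.40 when scaled by library size alone and -0.47 with the share of reads on no feature as a covariate, and none of these was called.

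The SPRED genes also stayed under the cutoff. *SPRED1* was at 116, 115 and 121 CPM with GFP and at 101, 89.4 and 86.2 CPM with Flag-ERRg, and here replicate 2 was the Flag-ERRg library closest to GFP. The log2 fold change was -0.35 (95% interval -0.56 to -0.14, adjusted p = 0.011); it was -0.66 and called when scaled by library size alone, and -0.07 with smooth curves for GC content and exon length in the fit. *SPRED2* was at 77.0, 78.8 and 81.1 CPM with GFP and at 85.02, 89.7 and 95.5 CPM with Flag-ERRg, which did not overlap. Its log2 fold change of 0.19 had a 95% interval from -0.01 to 0.39 (adjusted p = 0.10), and it was -0.13 when scaled by library size alone. With no fold cutoff, *SPRY4* would be counted as higher and *SPRY1* and *SPRED1* as lower.

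Count ratios within a library showed the same division. *DUSP4* had 0.484, 0.472 and 0.451 counts per count of *SPRY2* in GFP replicates 1, 3 and 4, and 1.48, 1.59 and 1.41 in Flag-ERRg replicates 2, 3 and 4. The ratio of *DUSP6* to *SPRY4* was 0.319 to 0.330 with GFP and 0.546, 0.714 and 0.714 with Flag-ERRg. For *SPRED2* over *SPRED1* the change was smaller, from 0.664 to 0.683 with GFP to 0.846, 1.00 and 1.11 with Flag-ERRg. These ratios depend on no scaling factor of a library, TMM included, but curves for GC content and exon length can shift them. With such curves fitted, *SPRED2* and *SPRED1* were at 0.003 and -0.07, so little of their difference was left. *ETV4* and *ETV5* were at 0.85 and 0.08, *DUSP4* and *SPRY2* at 1.42 and -0.15, and *DUSP6* and *SPRY4* at 1.28 and 0.14.

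**Figure D2:**
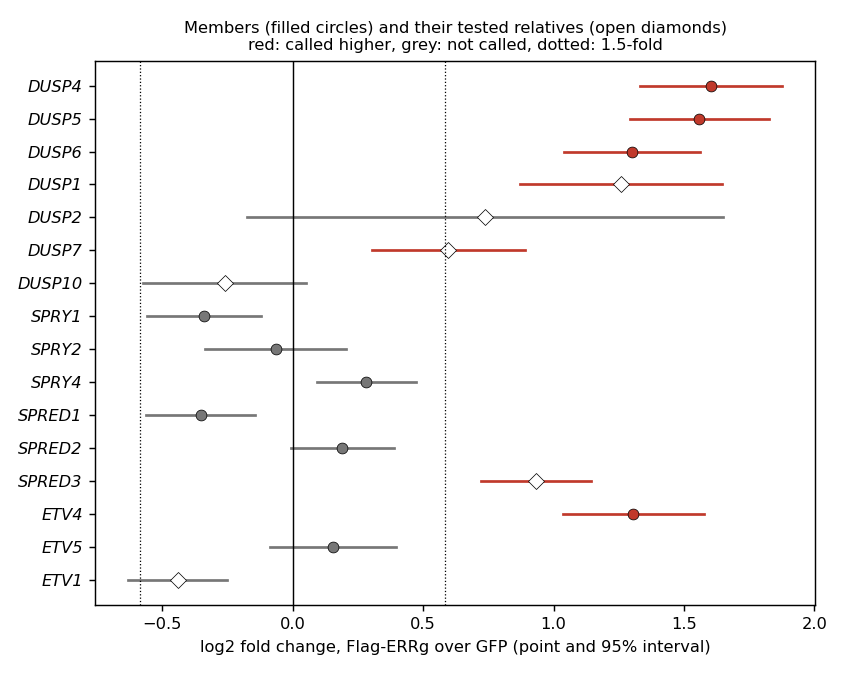
Log2 fold change of Flag-ERRg over GFP (x axis, point and 95% interval) for the 10 genes (filled circles) and their 6 tested relatives (open diamonds), with dotted lines at 1.5-fold. The intervals of *DUSP4*, *DUSP5*, *DUSP6* and *ETV4* lie wholly above the line, and those of the Sprouty genes, *SPRED1*, *SPRED2* and *ETV5* lie between the lines.

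The order of the levels per length shifted with these changes. In CPM per 1000 exon bases, *SPRY2* led with GFP at 78.5 ± 3.06 (SD, n = 3), more than all others, and *DUSP5* was last at 2.98 ± 0.03. Between them lay *SPRY4*, *ETV5*, *DUSP4*, *SPRED1*, *SPRY1* and *SPRED2*, from 17.2 down to 14.3, and then *ETV4* at 9.73 and *DUSP6* at 9.49. The ranges of the libraries overlapped between each neighbour in this order except below *SPRY2*, *DUSP4*, *SPRED2* and *DUSP6*. With Flag-ERRg *DUSP4* stood second to *SPRY2*, at 49.4 ± 7.42 against 74.9 ± 11.7 CPM per 1000 exon bases. *ETV4* and *DUSP6* followed at 24.1 ± 3.88 and 23.4 ± 3.52, above *SPRY4* at 20.9 ± 0.13, though the ranges of *ETV4*, *DUSP6* and *SPRY4* overlapped from each to the next. *SPRY1* and *SPRED1*, at 12.0 and 11.9, overlapped as well, and *DUSP5* was still last at 8.79 ± 1.07.

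The 4 calls did not rest on a single library or scaling. *DUSP4*, *DUSP5* and *ETV4* were called higher under each of 21 alternatives, and *DUSP6* under each of 20, having no value where genes that share over 20% of their exon bases were left out. The only other calls of members were those of *SPRY1* and *SPRED1* when scaled by library size alone, and of *SPRY4*, *SPRY1* and *SPRED1* with no fold cutoff. That last setting could not remove a call of the reported fit, and the 2-fold cutoff only read the same fit again. The log2 fold change ran from 1.21 to 1.83 for *DUSP4*, from 1.23 to 1.76 for *DUSP5*, from 0.91 to 1.53 for *DUSP6* and from 0.85 to 1.53 for *ETV4*. All 4 of the highest values came without Flag-ERRg replicate 2; in that fit *SPRY1* was at -0.18 and *SPRED2* at 0.34, neither called. When that library was instead the only Flag-ERRg library, an alternative chosen after seeing the data that assumes it to vary as the GFP libraries do, the values were 1.34, 1.36, 1.03 and 1.04 and all were called. With the share of reads on no feature as a covariate they were 1.21, 1.27, 0.91 and 0.89. That share also differed between the groups, and most of its spread lay between Flag-ERRg replicate 2 and replicates 3 and 4. This fit and the one on replicate 2 alone are thus not separate checks. The replicate block takes the group difference from replicates 3 and 4 alone, so it too leaves out Flag-ERRg replicate 2. The GC and length curves moved *ETV4* most, to 0.85 (adjusted p = 2.1e-05, edgeR); the longest transcript of *ETV4* has a GC content of 60.6%, the highest of the 10, and that of *SPRED1* the lowest at 36.3%.

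**Figure D3:**
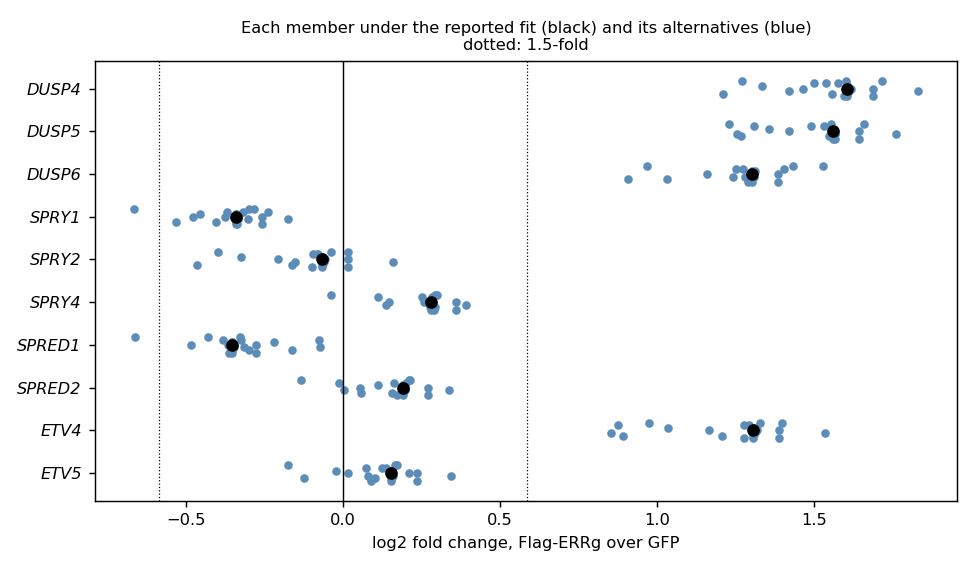
Log2 fold change of Flag-ERRg over GFP (x axis) of each of the 10 genes in the reported fit (black) and in its alternatives (blue), with dotted lines at 1.5-fold. *DUSP4*, *DUSP5*, *DUSP6* and *ETV4* stay above 1.5-fold in every alternative, and *SPRY2*, *SPRY4*, *SPRED2* and *ETV5* have points on both sides of 0.

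The remaining genes of the same families were divided too. Of 10 such genes, 6 were tested, 3 rose and none fell, with a median log2 fold change of 0.67. *DUSP1*, an immediate early gene whose product acts on p38, JNK and ERK, rose from 8.98 ± 0.64 to 21.5 ± 5.37 CPM (log2 fold change 1.26, adjusted p = 2.8e-04), but with the share of reads on no feature as a covariate it was 0.55 and not called. *SPRED3* rose from 36.3 ± 0.21 to 69.1 ± 5.97 CPM (0.93, adjusted p = 6.1e-05), unlike *SPRED1* and *SPRED2*, but it was not called with GC and length curves fitted (0.54). *DUSP7*, which encodes another cytoplasmic ERK phosphatase, passed narrowly at 0.60 (adjusted p = 0.0040) and was not called with those curves (0.19), with the covariate (0.25) or with Flag-ERRg replicate 2 alone (0.39). *ETV1*, the remaining PEA3 factor, was at 137 ± 3.88 CPM with GFP and 101 ± 1.13 with Flag-ERRg, a log2 fold change of -0.44 (adjusted p = 0.0019) that is under 1.5-fold. *DUSP10*, for a phosphatase of p38 and JNK, had -0.26 (adjusted p = 0.15) and was called lower with the covariate (-0.67, adjusted p = 0.0069), and *DUSP2* had 0.74 (adjusted p = 0.16) on 4 to 17 counts. *DUSP9* and *SPRY3* were too low to be tested, and *DUSP8* and *DUSP16* were listed at 0 in every library.

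Other transcripts that ERK signalling is known to induce were mostly higher. Of 10 such genes 8 were tested, 6 rose and 1 fell, with a median log2 fold change of 1.13. *FOSL1*, which encodes the AP-1 subunit FRA1, was at 12.0, 15.5 and 12.3 CPM with GFP and at 45.2, 63.3 and 66.9 CPM in Flag-ERRg replicates 2, 3 and 4, a log2 fold change of 2.14 (SE 0.16, adjusted p = 1.1e-05). *LIF*, the gene of a cytokine of the interleukin-6 family, rose from 3.53 ± 0.72 to 11.2 ± 2.03 CPM (1.67, adjusted p = 9.8e-05). *EPHA2*, a receptor gene, rose 2.83-fold, and *MYC*, *FOS* and *EGR1*, all for transcription factors, rose by 1.23, 1.02 and 0.82 on the log2 scale. With the covariate these last 3 were at 0.57, 0.13 and 0.54 and not called; *FOS* was also lost with Flag-ERRg replicate 2 alone (0.43) and *EGR1* with GC and length curves (0.50). *CCND1*, for cyclin D1, went the other way, from 152, 162 and 163 CPM with GFP to 87.8, 107 and 113 CPM with Flag-ERRg (-0.63, adjusted p = 9.7e-04). *PHLDA1* differed by -0.16 (adjusted p = 0.19), *EPHA4* had at most 1 count in any library, and *IER3* was listed at 0. With GC and length curves fitted 5 of these genes were called higher, and with the covariate 3, while *CCND1* was called lower in both.

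Of 19 receptor kinase genes upstream of ERK, all tested, 2 rose and 6 fell, with a median log2 fold change of -0.19. *ALK*, the receptor that is mutated in part of the neuroblastomas, was at 40.0 ± 2.42 CPM with GFP and 10.1 ± 1.52 with Flag-ERRg (log2 fold change -1.99, adjusted p = 3.4e-06). *KIT*, the stem cell factor receptor, had -1.84 (adjusted p = 1.7e-04) at a low level of 3.09 ± 0.16 CPM with GFP. The other 4 that fell were *PDGFRA*, *RET*, *EGFR* and *INSR*, from -1.53 to -0.83. *NTRK3*, a neurotrophin receptor gene, rose from 6.47 ± 0.38 to 13.4 ± 0.96 CPM (1.05, adjusted p = 9.8e-05). *FGFR4* rose by 0.84 (adjusted p = 0.010) on 43 to 114 counts. It was not called with GC and length curves fitted (0.35) or with the covariate (0.25), and was at 0.44 with Flag-ERRg replicate 2 alone. All 6 receptor genes that fell were also called lower with those curves, with the covariate and with Flag-ERRg replicate 2 alone.

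Among 12 genes of adaptors and exchange factors, 11 were tested, 2 rose and 3 fell (median -0.29). The adaptor genes *GRB2* and *SHC1* had log2 fold changes of 0.87 and 0.75, and *GAB1* and *FRS2*, for docking proteins, had -0.99 and -0.87. *GAB1* was also called with the curves, with the covariate and with Flag-ERRg replicate 2 alone. *GRB2*, *SHC1* and *FRS2* were not called with the covariate (0.29, 0.32 and -0.41) or with that replicate alone (0.49, 0.48 and -0.57), nor *SHC1* with the curves (0.39). Of 13 genes of the RAS, RAF, MEK and ERK proteins and their scaffolds, 11 were tested, 5 rose and 1 fell (median 0.28), *HRAS* being listed at 0. *MAP2K2*, which encodes MEK2, rose by 1.15 (adjusted p = 1.9e-04) and *ARAF* by 0.91, and *BRAF* fell by 0.62 on the log2 scale. With GC and length curves fitted 1 of the 11, *MAP2K2*, was called. *ARAF* and *BRAF* were at 0.50 and -0.24 with the curves, and at 0.40 and -0.30 with the covariate.

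Of 16 genes for kinases and factors below ERK, 15 were tested, 3 rose and 3 fell (median -0.04). *SRF*, for serum response factor, rose by 1.10 (adjusted p = 9.5e-05) and *ERF*, for an ETS repressor that ERK controls, by 0.87, and *ETS2* and *ELK4* had -0.68 and -0.63. *ERF* and *ELK4* were not called with the curves (0.38 and -0.30) or with the covariate (0.47 and -0.35). *CIC* was at 93.0 ± 1.51 CPM with GFP and 124 ± 11.2 with Flag-ERRg, a log2 fold change of 0.42 (adjusted p = 0.0047) that is under 1.5-fold. Of 11 other inhibitors of the pathway, 10 were tested, 2 rose and 1 fell (median -0.10). *ERRFI1*, for a feedback inhibitor of the EGF receptor, had 0.96 (adjusted p = 8.3e-05), *PEBP1*, for the RAF kinase inhibitor protein, had 0.89, and *RASA2*, for a RAS GTPase-activating protein, had -0.77. *RASA2* was not called with the curves (-0.52), the covariate (-0.30) or Flag-ERRg replicate 2 alone (-0.45), and *PEBP1* was not called with the covariate (0.36) or that replicate alone (0.54). Over all 7 of these lists 80 genes were tested, 23 rose (28.8%) and 15 fell, with a median log2 fold change of -0.02. Among all tested protein-coding genes 25.9% were called higher and 12.4% lower. The counts of the 7 lists were 13 and 11 with the curves, and 9 and 12 with the covariate, where more of the genes were lower than higher. Over all tested genes, 3725 were called higher and 3233 lower with the curves, and 1773 and 1323 with the covariate.

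**Figure D4:**
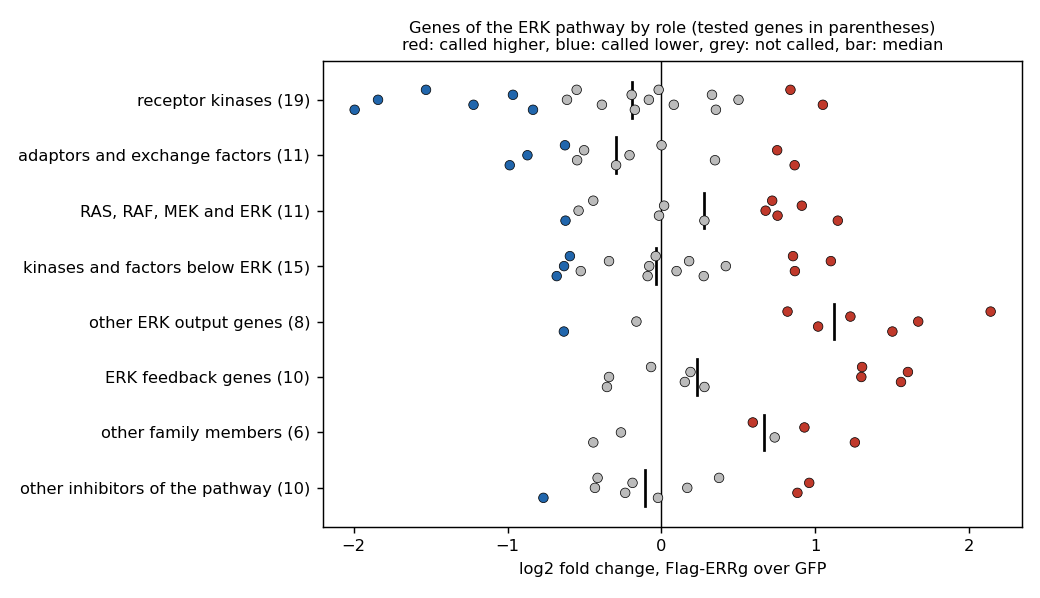
Log2 fold change of Flag-ERRg over GFP (x axis) of each tested gene of the ERK pathway, in rows by role with the number tested in parentheses; red genes were called higher, blue lower, and black bars are medians. The ERK output genes reach the highest values, up to 2.14 for *FOSL1*, and the receptor kinases the lowest, down to -1.99 for *ALK*.

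Of 9 annotated genes whose bodies overlap a member, 8 were tested. *SPRY4-AS1*, the antisense gene whose body overlaps *SPRY4*, shares no exon bases with other genes and was at 20.6 ± 1.99 CPM with GFP and 15.2 ± 1.59 with Flag-ERRg (log2 fold change -0.44, adjusted p = 0.010, under 1.5-fold), while *SPRY4* had 0.28. *ETV5-AS1* had -0.34 (adjusted p = 0.27) on 51 to 78 counts. *DHX8*, an RNA helicase gene that overlaps *ETV4* on the other strand, rose by 0.63 (adjusted p = 0.0017), with 1.93% of the exon bases of *ETV4* shared with other genes. ENSG00000274021, across *DUSP6*, was called higher at 0.96 (adjusted p = 0.022) on 21 to 57 counts. Of its exon bases 49.0% are shared, and with the strand setting unknown its counts may not be its own. The other 4 tested genes across *SPRY4*, *SPRED2* and *ETV5* were not called.

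The gene profile nearest to that of *DUSP4* was that of *ERCC2*, a DNA helicase gene of transcription factor TFIIH. The measure was the Euclidean distance between log2 CPM centred on the GFP mean, over 6 libraries and among 12048 protein-coding genes with at least 50 counts on average. *ERCC2* was at a distance of 0.14, and *TNFRSF10B*, *STEAP3* and *CPTP* were at 0.16 to 0.18. These 4 genes had log2 fold changes between 1.58 and 1.62, and in each Flag-ERRg replicate 2 was the lowest of the Flag-ERRg libraries. Both traits follow from the choice of genes by nearness to *DUSP4*.

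Promoter windows from RefSeq (GRCh38.p14, 250 bases before to 50 after the start) were matched for 6 of the 10 genes, *DUSP6*, *SPRY1*, *SPRY2*, *SPRY4*, *SPRED1* and *SPRED2*. They were searched on both strands for 6 motifs. The element of ERR receptors, TNAAGGTCA, occurs in 0.963% of 27305 windows of that length. The Capicua motif TGAATGAA occurs in 1.67% and its second form TGAATGGA in 1.05%. The ETS motif CCGGAAGT occurs in 4.44%, the AP-1 motif TGANTCA in 7.76% and the CRE motif TGACGTCA in 1.98%. None of the 6 windows held any of these letters. The shorter ETS core CGGAA, added after that search, occurs in 35.2% of all windows, 3 times in that of *DUSP6*, 2 times in that of *SPRY2* and 1 time in that of *SPRED2*. The 250 bases before the start are shown for *DUSP6*, the only gene that rose among the 6, at chr12:89352502-89352751, and for *SPRY2*, the most abundant gene that did not, at chr13:80341127-80341376. Both are on the reverse strand and read 5′ to 3′, with the ETS core on either strand in capitals.
DUSP6: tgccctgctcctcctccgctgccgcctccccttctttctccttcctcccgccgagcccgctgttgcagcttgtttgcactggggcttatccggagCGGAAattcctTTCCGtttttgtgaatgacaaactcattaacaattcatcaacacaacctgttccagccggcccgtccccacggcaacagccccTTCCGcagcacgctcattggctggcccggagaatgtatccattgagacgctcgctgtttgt
SPRY2: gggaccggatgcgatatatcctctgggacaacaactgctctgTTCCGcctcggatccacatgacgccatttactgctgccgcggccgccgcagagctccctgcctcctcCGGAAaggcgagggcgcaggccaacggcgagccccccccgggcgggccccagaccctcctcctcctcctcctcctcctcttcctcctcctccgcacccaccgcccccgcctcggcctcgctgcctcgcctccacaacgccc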

How the data were processed

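RNA sequencing of 6 SH-SY5Y libraries, made from rRNA-depleted total RNA, was analysed, 3 per group, with groups and replicate numbers from the sample titles. The authors deposited raw counts of reads per gene for 67060 identifiers plus 5 summary entries of the counting. The submitters' processing notes name Trim Galore 0.6.7, STAR 2.7.9a, HTSeq 0.11.3, DESeq2 and GRCh38; the annotation release and strand setting are not given in the sources used here. The summary entries were kept out of library sizes and tests. Identifiers were matched without version to GENCODE release 44 (60419 matched, 90.1%), which gave symbols, positions, exon lengths and GC content.

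Counts were analysed with edgeR 4.0.16 in R 4.3.3 (filterByExpr, TMM, quasi-likelihood test, Benjamini-Hochberg adjustment over all 24500 genes passing). SE was taken as the size of the log2 fold change divided by the root of its F statistic. CPM were scaled with TMM, and 2 was the prior count for logs. Fits were tried on simulated counts with few changed genes and the same spread in every library. That setting is simpler than these data, so it does not test the scaling or the error rates here. The members and lists were chosen with earlier results of these data known. Named genes are the members, their relatives, *CIC*, *ESRRG*, up to 2 called genes per direction and list with a mean of at least 50 counts, genes overlapping a member, and the 5 profiles nearest to the most changed member; a gene that this rule would name is not reported here. *PDGFRA*, *RET*, *EGFR*, *INSR*, *EPHA2*, *MYC*, *FOS*, *EGR1*, *PHLDA1* and genes listed at 0 or in few counts were named after their values were seen. Alternatives were DESeq2 1.42.0, 2 other scalings, 2 filters, 3 cutoffs, protein-coding genes, genes with little exon sharing, each library left out, the replicate number as a block, GC and length curves (mgcv 1.9.3), their combination, and the share of reads on no feature as a covariate. No 2 libraries of a group agreed within sampling noise.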

Additional observations from a re-analysis of the deposited data

Results flagged for a closer look

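The ambiguous reads of the counting, which no comparison above uses, made up 8.44% of all entries on average in the Flag-ERRg libraries (5.69%, 9.84% and 9.79% in replicates 2, 3 and 4) and at most 4.87% in the GFP libraries. They are listed for this higher level in data outside the main measurement.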

How the results depend on the processing

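The 4 calls of *DUSP4*, *DUSP5*, *DUSP6* and *ETV4* and the count of 0 lower members held in most alternatives, and 2 members were called lower when scaled by library size alone and 2 with no fold cutoff. Scaling by library size alone shifted all genes: 2200 were called higher and 7566 lower against 4234 and 4117, the median over all tested genes was -0.42 and that of the members -0.085, with *SPRY1* at -0.67, *SPRED1* at -0.66, *SPRY4* at -0.037, *SPRED2* at -0.13 and *ETV5* at -0.17. The share of higher among called genes was 50.7% as reported, 59.5% with DESeq2, 58.1% with RLE factors, 22.5% with library size alone and 61.4% with the test against 1.5-fold. With no fold cutoff *SPRY1* (-0.34), *SPRED1* (-0.35) and *SPRY4* (0.28) were called. *SPRY2* turned to 0.017 with DESeq2 and with RLE factors.

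Counts over all genes were 1952 higher and 1982 lower at 2-fold, 2207 and 1387 with the test against 1.5-fold, 2814 and 2468 for protein-coding genes, 1773 and 1323 with the covariate, and 2555 and 2031 with Flag-ERRg replicates 3 and 4 left out together, which was chosen after seeing the data. Leaving out single libraries gave 3710 to 5820 higher and 2895 to 5141 lower, 4 members higher and 0 lower each time, and a median of the members from 0.22 to 0.37, the highest without Flag-ERRg replicate 2. It was 0.10 among protein-coding genes and 0.11 with GC and length curves. The median over all tested genes was -0.01 with those curves and 0.02 with the covariate. *SPRY2* ran from -0.16 to 0.16 over the left-out libraries, and *ETV5* was -0.12 with the covariate and -0.021 with replicates 3 and 4 out.

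Of other relatives, 3 were called, and 1 at 2-fold, 1 with GC and length curves and 1 with those and the block. Of output genes, 7 were called, and 4 with the test against 1.5-fold and 4 with the covariate. Of receptors, 8 were called, and 5 at 2-fold. Of adaptors, 5 were called, and 9 with no cutoff, 0 at 2-fold, 1 against 1.5-fold, 3 with the curves, 3 with curves and block, 1 with the covariate and 1 with replicates 3 and 4 out. Of RAS to ERK genes, 6 were called, and in the same order without the first 1, 2, 1, 2, 2 and 2. Of other inhibitors, 3 were called, and 6 with no cutoff, 0 at 2-fold, 1 against 1.5-fold, 1 with the covariate and 1 with replicates 3 and 4 out. Of genes below ERK, 6 were called, and 1 at 2-fold, 2 against 1.5-fold, 2 with the curves, 2 with curves and block, 2 with the covariate and 3 with replicates 3 and 4 out. The cause of these changes was not tested.

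Replicates 3 and 4 bear the same numbers in both groups, and the labels do not say whether the numbers mark a shared batch. The correlation of deviations between the groups was 0.075 and -0.0001. It cannot show that no batch was shared, because most of the Flag-ERRg spread lay between replicate 2 and replicates 3 and 4. With the replicate block the group difference came from replicates 3 and 4 alone, as replicates 1 and 2 are not shared between the groups. In that fit *DUSP4* was 1.72, *DUSP5* 1.66, *DUSP6* 1.43 and *ETV4* 1.40, and all were called, while *SPRY2* was 0.017. With replicate block and GC and length curves the median of the members was 0.093 and *SPRED2* was -0.012. Depth limits *DUSP2*, *FOS*, *KIT*, *FGFR4*, *COL1A2*, *ETV5-AS1* and ENSG00000274021, which had fewer than 150 counts in every library.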
